A study of Homo sapiens with 4 samples.

Results

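Glycolysis and hexose transport were followed through 40 genes: the transporters that carry sugars across membranes, the enzymes that turn glucose into pyruvate and lactate, the controls of pyruvate dehydrogenase, and the regulators that tie this pathway to oxygen. The genes were chosen by name, and each of the 40 symbols matched 1 of the 43450 rows of the deposited expression table. Polyadenylated RNA came from BLaER1, a leukaemic human B cell line grown in RPMI with 10% serum. Its cells hold a C/EBPα transgene that, once induced, turns them into macrophage-like cells, and no induction is stated for these libraries. The 2 control libraries came from BLaER1 cells labelled control, and what these cells were given instead of oligonucleotides is not stated in the labels. The 2 knockdown libraries came from the same line after 3 LNA GapmeRs, antisense oligonucleotides that lead RNase H to the RNA they bind, had been put into the medium with no transfection step, all directed at the long non-coding RNA HAL7. The time of exposure is not given in the sources used here. The comparison asks which transcript levels differ when HAL7 is lowered.

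Cells take up glucose and fructose through facilitative carriers of the SLC2A family, and hexokinases trap glucose inside the cell as its phosphate. Phosphofructokinase sets the pace of the pathway, and its strongest activator is made and removed by the PFKFB enzymes. Pyruvate is then either reduced to lactate and exported by SLC16A carriers or oxidised in mitochondria, and leukaemic B cell precursors, which divide quickly, use both routes. When oxygen is low, HIF1A escapes the EGLN hydroxylases and raises many genes of the pathway through the DNA core ACGTG or GCGTG.

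HAL7 itself, annotated as an antisense RNA on the minus strand at chrX:71183559-71198175 (GRCh38, GENCODE 29), was listed at 0.726 and 0.613 FPKM in the control libraries and at 0.475 and 0.347 in the knockdown libraries, where FPKM are fragments scaled to the length of the transcript and to the mapped fragments of the library. Both knockdown values were below both control values, with a ratio of mean FPKM of 0.614. The difference did not pass the test (log2 change -0.24 ± 0.11 SE, limma adjusted p = 0.319). That change is on log2(FPKM + 1), which understates it for a gene this low. With 0.1 added in place of 1 it was -0.60 and did not pass either (limma adjusted p = 0.307). These levels rest on an estimated 24.1 to 56.7 fragments per library. The 4 libraries held an estimated 60.2 to 128 M fragments, with control replicate 0 the shallowest, and 12902 to 12974 genes at 1 FPKM or more. All 13 markers of the B lineage were present, at mean levels of 6.28 to 1452 FPKM, with sums of 4528 and 4537 in control and 4385 and 4372 after knockdown. Of these, RAG1 (240 and 252 against 216 and 191 FPKM) and RAG2 (386 and 415 against 365 and 319) were lower in both knockdown libraries, with limma adjusted p of 0.201 and 0.249. Of 11 macrophage markers found, 9 were under 1 FPKM, and the summed level, mostly CSF1R, was 39.6 and 38.6 in control and 36.7 and 40.3 after knockdown. CD68, the other of them above 1 FPKM, was at 2.73 and 3.21 in control and 2.43 and 1.995 after knockdown (limma adjusted p = 0.244). Of 9 T and NK markers, 8 were under 1 FPKM, and the sum, nearly all NKG7, was 27.7 and 27.3 in control and 22.1 and 17.3 after knockdown (NKG7 limma adjusted p = 0.190). The 6 erythroid markers were all under 1 FPKM, with HBA1, HBA2 and HBB listed at 0 in every library. The part of these markers in the results below was not tested.

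None of the 35 genes of the pathway that could be tested passed limma's test after Benjamini-Hochberg adjustment, against 0.0309% of the 12935 genes tested in all. The other 5 had a mean under 1 FPKM and stayed outside the fit. Without adjustment, 4 of the 35 (11.4%) had a limma p under 0.05, a smaller share than the 16.6% of all genes. SLC16A1 was the 1 higher gene among them, where 7.25% of all genes were higher at that level, and SLC2A5, PFKFB4 and SLC16A3 were the 3 lower ones, where the background was 9.35%. The median log2 change was -0.0014 over the 35 genes and -0.0090 over all genes, with 17 of the 35 above 0 and 18 below. In 15 of the 35 (42.9%) the knockdown libraries lay wholly above or wholly below the control libraries, against 50.3% of all genes. The limma 95% intervals reached 0.12 to 0.24 to either side of the estimate on the log2 scale, and 31 of the 35 held 0. For 21 genes the whole interval lay within 0.25 of 0. For these, a change of FPKM + 1 by more than 1.19-fold in either direction is outside the interval. The matching change of FPKM itself is larger for genes of low level. The labels do not say that the libraries of a group came from separate cultures, so these tests measure the spread between libraries, which may be technical. In such bulk RNA, fewer cells of a kind and less RNA per cell cannot be told apart.

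**Figure D1:**
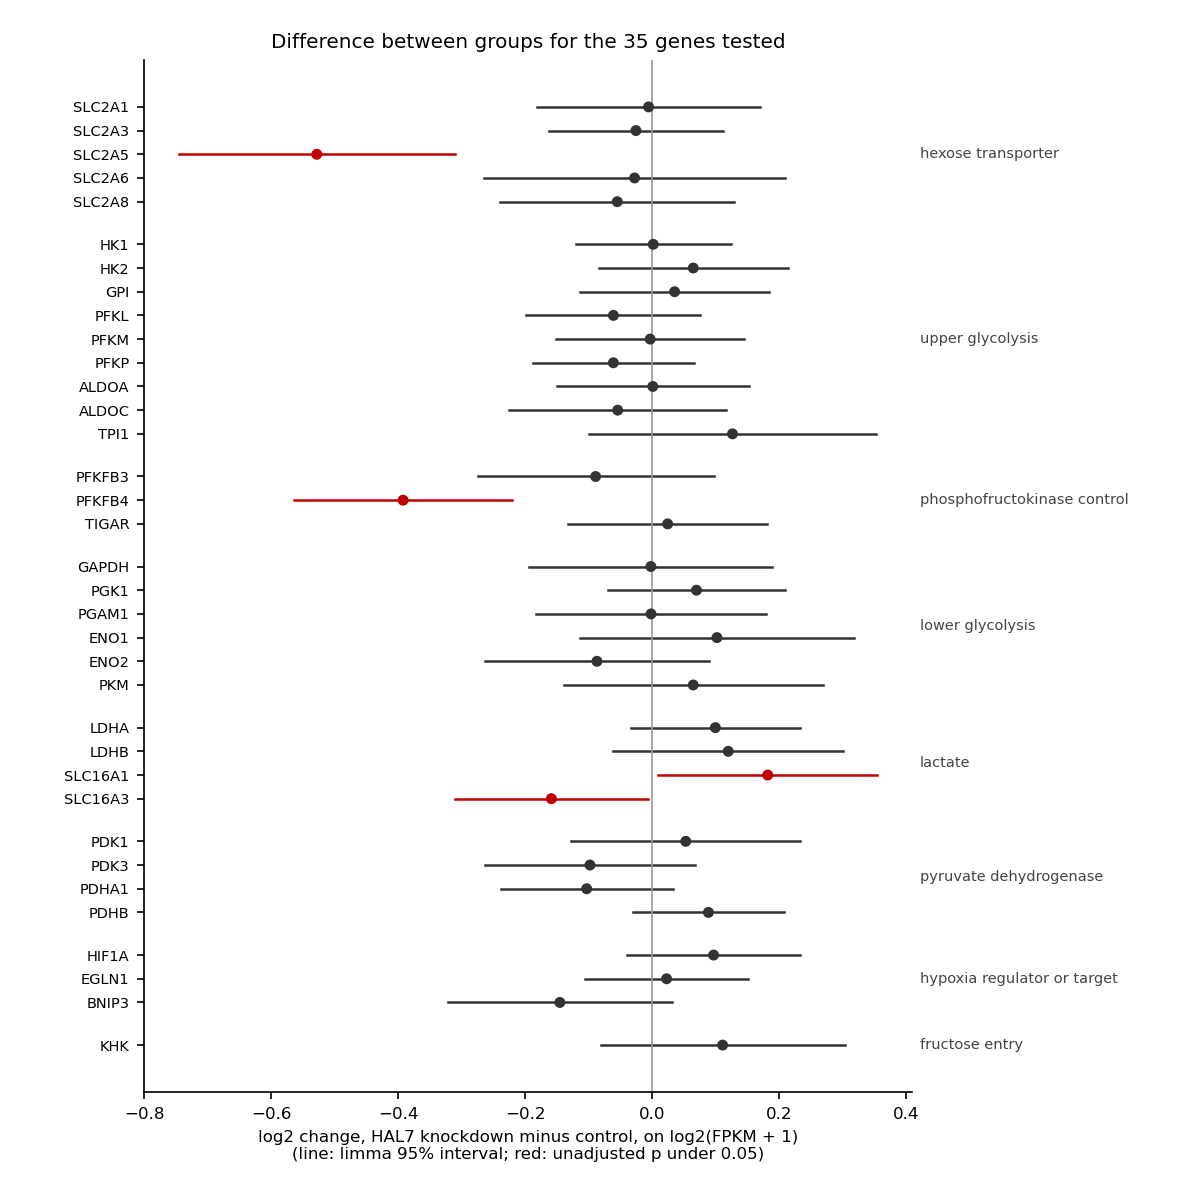
Log2 change between HAL7 knockdown and control for the 35 genes tested, on the log2(FPKM + 1) scale (horizontal axis), grouped by role; dots are limma estimates, lines are 95% intervals and red marks an unadjusted p under 0.05. The intervals of SLC2A5 and PFKFB4 lie farthest from 0, and 31 of the 35 intervals hold 0.

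Among the hexose transporters, SLC2A5, the carrier of fructose (GLUT5), stood highest and differed most. SLC2A5 was at 34.0 and 40.1 FPKM in the control libraries and at 26.5 and 24.1 in the knockdown libraries. The groups did not overlap, and both knockdown libraries were lower, at a mean of 25.3 ± 1.72 against 37.0 ± 4.36 FPKM (SD, n = 2 each). The ratio of these means was 0.684. On the log2(FPKM + 1) scale the difference was -0.53 ± 0.09 SE, with a limma 95% interval of -0.75 to -0.31. The unadjusted limma p of 0.000864 ranked 50th of all genes tested, and the adjusted p was 0.187. SLC2A5 is a protein-coding gene on the minus strand at chr1:9035107-9088478 (GRCh38, GENCODE 29), and no other annotated gene shares its exons.

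The other sugar carriers were lower in level than SLC2A5. SLC2A1, the widespread carrier of basal glucose uptake (GLUT1), was at 15.8 and 14.3 FPKM in control and 14.4 and 15.6 after knockdown, so the groups overlapped and the interval ran from -0.18 to 0.17 on the log2 scale. SLC2A3, a glucose carrier of high affinity (GLUT3), was at 14.4 and 15.1 FPKM in control and 14.5 and 14.4 after knockdown. Its log2 interval was -0.16 to 0.11, and its level is uncertain, because SLC2A14 and the pseudogene SLC2A3P1 are near copies whose fragments the authors' counting could have split. SLC2A6 at 4.41 to 5.32 FPKM and SLC2A8 at 3.34 to 3.73 FPKM, both carriers of intracellular membranes, also overlapped between groups. SLC2A10 was below the filter at 0.574 and 0.634 FPKM in control and 0.755 and 0.721 after knockdown, both higher. SLC2A13, a myo-inositol carrier, was at 0.420 to 0.442 FPKM in all 4 libraries. KHK, which phosphorylates fructose once it is inside, was at 3.32 and 3.74 FPKM in control and 3.81 and 3.97 after knockdown, with a log2 change of 0.11 ± 0.08 SE (limma adjusted p = 0.519). The ratio of SLC2A5 to KHK was 10.2 and 10.7 in control and 6.97 and 6.07 after knockdown.

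PFKFB4, one of the bifunctional enzymes that make and remove the activator of phosphofructokinase, was at 16.0 and 16.2 FPKM in control and at 12.8 and 11.3 after knockdown. Both knockdown libraries were again lower, at 12.1 ± 1.06 against 16.1 ± 0.154 FPKM (SD, n = 2 each). The log2 difference was -0.39 ± 0.07 SE, with an interval of -0.56 to -0.22. Its unadjusted limma p of 0.00122 ranked 77th, and the adjusted p was 0.187. PFKFB4 lies on the minus strand at chr3:48517684-48562015 (GRCh38, GENCODE 29) and shares exon sequence with UCN2 on the same strand, so fragments of the shared stretch cannot be assigned to one or the other. PFKFB3, the enzyme of this family with the strongest kinase side, was at 9.63 and 10.6 FPKM in control and 8.98 and 9.95 after knockdown, with overlapping groups (log2 change -0.09 ± 0.08 SE). PFKFB2 was listed at 0 in all 4 libraries. TIGAR, a phosphatase that removes the same activator, was at 6.15 and 6.20 FPKM in control and 6.13 and 6.48 after knockdown.

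The promoters of 4 genes are shown because they bracket the HIF cores seen in the pathway: SLC2A5 and PFKFB4, the genes with the lowest unadjusted p, and LDHA and BNIP3, textbook HIF targets. None of the 4 passed the adjusted test. Each line gives the 250 bases before a RefSeq transcription start on GRCh38.p14, 5′ to 3′ on the gene's strand, with ACGTG and GCGTG on either strand and the palindrome CACGTG in capitals.
SLC2A5, chr1:9069636-9069885, minus strand: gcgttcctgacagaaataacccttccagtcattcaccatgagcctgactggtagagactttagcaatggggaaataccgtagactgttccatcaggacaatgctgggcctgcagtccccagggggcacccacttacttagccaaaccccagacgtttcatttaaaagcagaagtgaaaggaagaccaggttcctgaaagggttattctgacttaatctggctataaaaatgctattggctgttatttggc
PFKFB4, chr3:48556804-48557053, minus strand: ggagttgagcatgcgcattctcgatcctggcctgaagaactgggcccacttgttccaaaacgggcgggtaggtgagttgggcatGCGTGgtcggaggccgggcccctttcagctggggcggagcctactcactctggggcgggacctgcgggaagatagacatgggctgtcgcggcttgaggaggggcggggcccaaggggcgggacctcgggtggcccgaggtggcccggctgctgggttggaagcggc
LDHA, chr11:18394313-18394562, plus strand: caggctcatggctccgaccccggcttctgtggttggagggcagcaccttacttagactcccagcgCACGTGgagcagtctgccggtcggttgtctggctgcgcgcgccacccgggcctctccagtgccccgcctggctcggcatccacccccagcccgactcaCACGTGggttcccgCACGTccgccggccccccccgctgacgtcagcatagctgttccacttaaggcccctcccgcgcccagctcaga
BNIP3, chr10:131981924-131982173, minus strand: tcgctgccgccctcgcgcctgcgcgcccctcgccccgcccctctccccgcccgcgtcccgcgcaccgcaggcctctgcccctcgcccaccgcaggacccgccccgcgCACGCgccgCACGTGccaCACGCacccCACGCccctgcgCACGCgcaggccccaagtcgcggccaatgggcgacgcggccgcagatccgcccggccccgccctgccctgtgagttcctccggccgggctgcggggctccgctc

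With both strands counted, the SLC2A5 window held no such core, the PFKFB4 window held 1 GCGTG, the LDHA window 5 ACGTG, and the BNIP3 window 2 ACGTG and 4 GCGTG. Each palindrome CACGTG counts as ACGTG once per strand, and LDHA had 2 palindromes and BNIP3 had 1. GC content was 46.8% in the SLC2A5 window, 68.0% for PFKFB4, 69.6% for LDHA and 81.6% for BNIP3. A second LDHA window, not shown, held 1 GCGTG and no ACGTG. The table of RefSeq promoters covered 36 of the 40 genes with 63 windows, and 57.1% of these windows held ACGTG or GCGTG, against 43.2% of all 35116 windows of the same length. CACGTG was in 14.3% of the windows of the pathway and in 6.34% of all windows. The windows were not matched for GC content, and some genes had several windows that overlap each other. A match is a match of letters only, and the absence of one says nothing of binding elsewhere.

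Most steps of upper glycolysis sat close to their control level. HK1, the housekeeping hexokinase, was at 27.4 and 27.1 FPKM in control and 27.1 and 27.6 after knockdown, with a log2 interval of -0.12 to 0.12. HK2, the inducible hexokinase, was at 17.25 and 17.16 FPKM in control and 17.29 and 18.84 after knockdown. Both HK2 knockdown values were higher, knockdown replicate 0 barely so, by a log2 change of 0.07 ± 0.06 SE (limma adjusted p = 0.630). HK3, a myeloid hexokinase, was listed at 0 in both control libraries and at 0.00916 and 0.0842 FPKM after knockdown, the second an estimated 24.7 fragments, and its exons overlap those of UNC5A on the other strand. GPI, which converts glucose phosphate to fructose phosphate, ranged from 36.0 to 39.5 FPKM with overlapping groups.

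The 3 phosphofructokinase subunits were present in like amounts. PFKL, the liver form, was at 64.0 and 60.5 FPKM in control and 58.0 and 61.3 after knockdown. PFKM, the muscle form, was at 62.4 and 62.5 FPKM in control and 59.3 and 65.5 after knockdown. PFKP, the platelet form, was at 51.6 and 52.0 FPKM in control and 48.3 and 51.0 after knockdown, both lower, with a log2 interval of -0.19 to 0.07. Together they summed to 178 and 175 FPKM in control and 166 and 178 after knockdown, so the groups overlapped. Next in the path, ALDOA, the main aldolase, was at 206 and 200 FPKM in control and 194 and 214 after knockdown, and ALDOC made up 4.53% to 4.75% of aldolase FPKM. TPI1, the triose isomerase, was at 137 and 132 FPKM in control and 133 and 163 after knockdown, where the last library alone stood above the rest.

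The steps of lower glycolysis held the most abundant transcripts. GAPDH was at 3220 and 2864 FPKM in control and 2972 and 3096 after knockdown, inside the control range, with a log2 interval of -0.19 to 0.19. PGK1, which forms the first ATP of the pathway, was at 187 and 181 FPKM in control and 186 and 201 after knockdown. PGAM1, the mutase, ranged from 21.3 to 24.6 FPKM with overlapping groups. ENO1, the main enolase, was at 392 and 368 FPKM in control and 374 and 445 after knockdown. As with TPI1, knockdown replicate 1 alone stood above the control libraries. ENO2, the neuronal enolase that is also a HIF target, was at 3.50 and 3.74 FPKM in control and 3.38 and 3.32 after knockdown, both lower (log2 change -0.09 ± 0.07 SE). PKM, pyruvate kinase, was at 205 and 198 FPKM in control and 194 and 230 after knockdown. GAPDH and PGAM1 in particular have many processed copies in the genome, described below, so their values are uncertain where the counting could share fragments. The copies were listed at low levels, with a highest mean of 0.757 FPKM for those of GAPDH and 0.392 FPKM for those of PGAM1. Sharing of fragments was not tested.

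**Figure D2:**
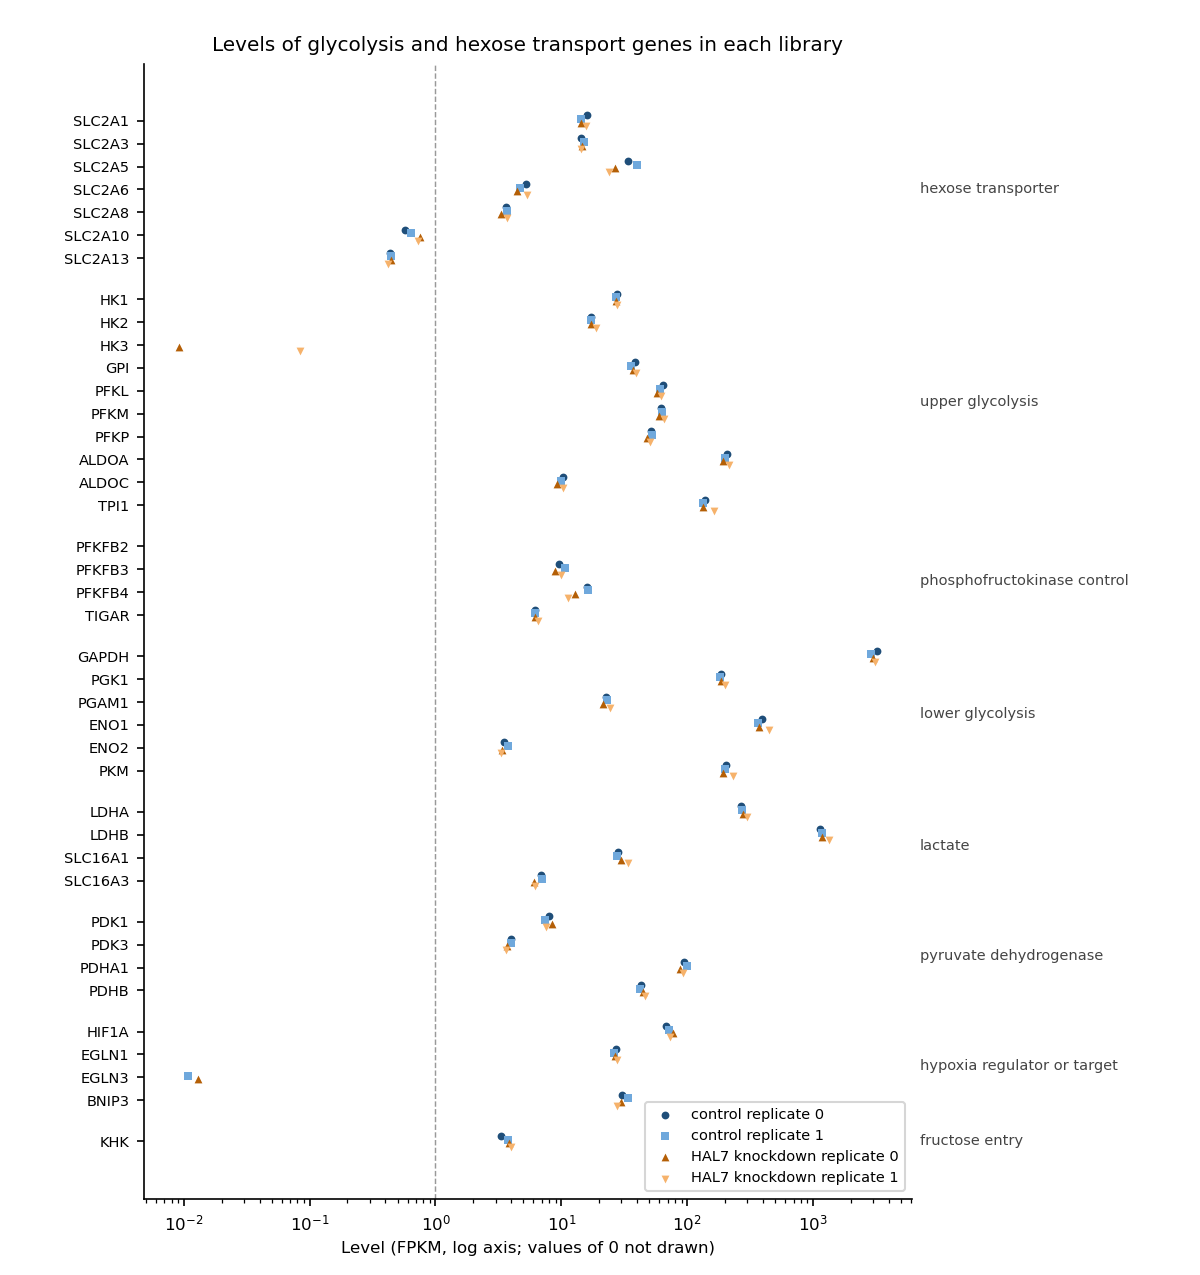
Level of each of the 40 genes in each library, in FPKM on a log axis, grouped by role; values of 0 are not drawn, the dashed line marks 1 FPKM and the marker shape and colour give the library. GAPDH and LDHB stand above 1000 FPKM, and the knockdown points of SLC2A5 and PFKFB4 lie to the left of their control points.

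At the exit towards lactate, all 4 genes had groups that did not overlap, 3 higher and SLC16A3 lower after knockdown, where 50.3% of all genes tested did not overlap. LDHA, the dehydrogenase subunit of glycolytic tissue, was at 266 and 271 FPKM in control and 279 and 298 after knockdown (log2 change 0.10 ± 0.06 SE, limma adjusted p = 0.410). LDHB, the subunit of oxidative tissue, was at 1129 and 1174 FPKM in control and 1177 and 1330 after knockdown (log2 change 0.12 ± 0.08 SE, limma adjusted p = 0.463). LDHB was the more abundant subunit here, at 4.22 to 4.47 times LDHA in the 4 libraries. SLC16A1, the monocarboxylate carrier MCT1 that moves lactate either way, was at 27.9 and 27.8 FPKM in control and 29.7 and 33.9 after knockdown. Its mean was 31.8 ± 2.96 against 27.9 ± 0.0796 FPKM (SD, n = 2 each), a log2 difference of 0.18 ± 0.07 SE. The unadjusted limma p was 0.0411 and the adjusted p 0.282. SLC16A3, the exporter MCT4 of glycolytic and hypoxic cells, was at 6.88 and 7.04 FPKM in control and 6.04 and 6.22 after knockdown. Its log2 difference was -0.16 ± 0.06 SE, with an unadjusted limma p of 0.0432 and an adjusted p of 0.285. Both genes share exon sequence with a gene on the other strand, SLC16A1 with SLC16A1-AS1 and SLC16A3 with CSNK1D, and strand-specific counting is not stated.

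Of the genes for the oxidation of pyruvate in mitochondria, the pyruvate dehydrogenase subunits PDHA1 and PDHB stood on opposite sides of 0. PDHA1 was at 93.5 and 99.7 FPKM in control and 87.9 and 91.8 after knockdown, both lower, with a log2 change of -0.10 ± 0.06 SE (limma adjusted p = 0.405). PDHB was at 42.7 and 42.4 FPKM in control and 44.7 and 46.0 after knockdown, both higher, with a log2 change of 0.09 ± 0.05 SE (limma adjusted p = 0.411). Of the kinases that switch the complex off, PDK1 and PDK3 belong to the 40 genes. PDK2, outside them and named here after its values were seen, was higher in level than either. It was at 17.8 and 17.6 FPKM in control and 17.06 and 17.13 after knockdown, both lower (log2 change -0.05 ± 0.05 SE, limma adjusted p = 0.678). PDK1, which HIF induces, was at 7.97 and 7.37 FPKM in control and 8.39 and 7.60 after knockdown, with overlapping groups. PDK3 was at 3.97 and 4.01 FPKM in control and 3.68 and 3.65 after knockdown, both lower (log2 change -0.10 ± 0.07 SE).

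The oxygen-sensing genes were led by HIF1A at 67.7 and 71.4 FPKM in control and 76.6 and 72.3 after knockdown. Both knockdown values were higher, by a log2 change of 0.10 ± 0.06 SE (limma adjusted p = 0.429). EGLN1, the main hydroxylase that marks HIF1A for breakdown, was at 27.1 and 26.3 FPKM in control and 26.6 and 27.6 after knockdown. EGLN3, a hydroxylase that hypoxia induces in many cells, was listed at 0 to 0.0130 FPKM. BNIP3, a HIF target that acts in mitochondrial clearance, was at 30.1 and 33.5 FPKM in control and 29.9 and 27.4 after knockdown. Its log2 change was -0.15 ± 0.07 SE with an interval of -0.32 to 0.03 (limma adjusted p = 0.373). Among a selection of genes that HIF is known to induce, BNIP3, PFKFB4, SLC16A3 and ENO2 were lower in both knockdown libraries. For BNIP3, knockdown replicate 0 lay only just below control replicate 0. LDHA and HK2 were higher in both, and PGK1, PDK1 and SLC2A1 overlapped. Of the other genes tested in the pathway, ALDOA, TPI1, GAPDH, ENO1, PKM and PFKFB3 were among those that overlapped. SLC2A5, PFKP, PDK3 and PDHA1 were lower in both knockdown libraries, and LDHB, SLC16A1, PDHB, KHK and HIF1A were higher in both. Over all genes tested, 50.3% did not overlap between the groups.

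Within families, the make-up of the transcript pool differed most where SLC2A5, PFKFB4 and the SLC16A pair were concerned. SLC2A5 made up 45.9% and 50.8% of the summed FPKM of the 7 hexose transporters in control and 41.2% and 37.5% after knockdown. This is a difference of -8.96 percentage points, and the summed transporter FPKM was 74.0 and 79.0 in control and 64.4 and 64.2 after knockdown. PFKFB4 made up 62.4% and 60.4% of PFKFB FPKM in control and 58.8% and 53.2% after knockdown. SLC16A1 made up 80.2% and 79.8% of the FPKM of the 2 lactate carriers in control and 83.1% and 84.5% after knockdown. The shares of these 3 genes did not overlap between groups. Smaller differences without overlap were also seen: PDK1 made up 66.8% and 64.7% of the FPKM of PDK1 and PDK3 in control and 69.5% and 67.6% after knockdown. HK1 made up 61.4% and 61.2% of hexokinase FPKM in control and 61.0% and 59.3% after knockdown. The shares of PFKM and ALDOA differed by 0.944 and 0.187 percentage points, likewise without overlap. For the lactate dehydrogenases the groups overlapped: LDHB made up 80.9% to 81.7% of lactate dehydrogenase FPKM. Over the 4 libraries PFKL, PFKM and PFKP made up 34.5% to 36.0%, 35.04% to 36.8% and 28.7% to 29.7% of phosphofructokinase FPKM. ENO1 made up 98.99% to 99.3% of the ENO1 and ENO2 sum, with overlapping groups. With 2 libraries in each group an exact permutation test of a single share cannot go below p = 0.333, so no test of the shares is given.

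**Figure D3:**
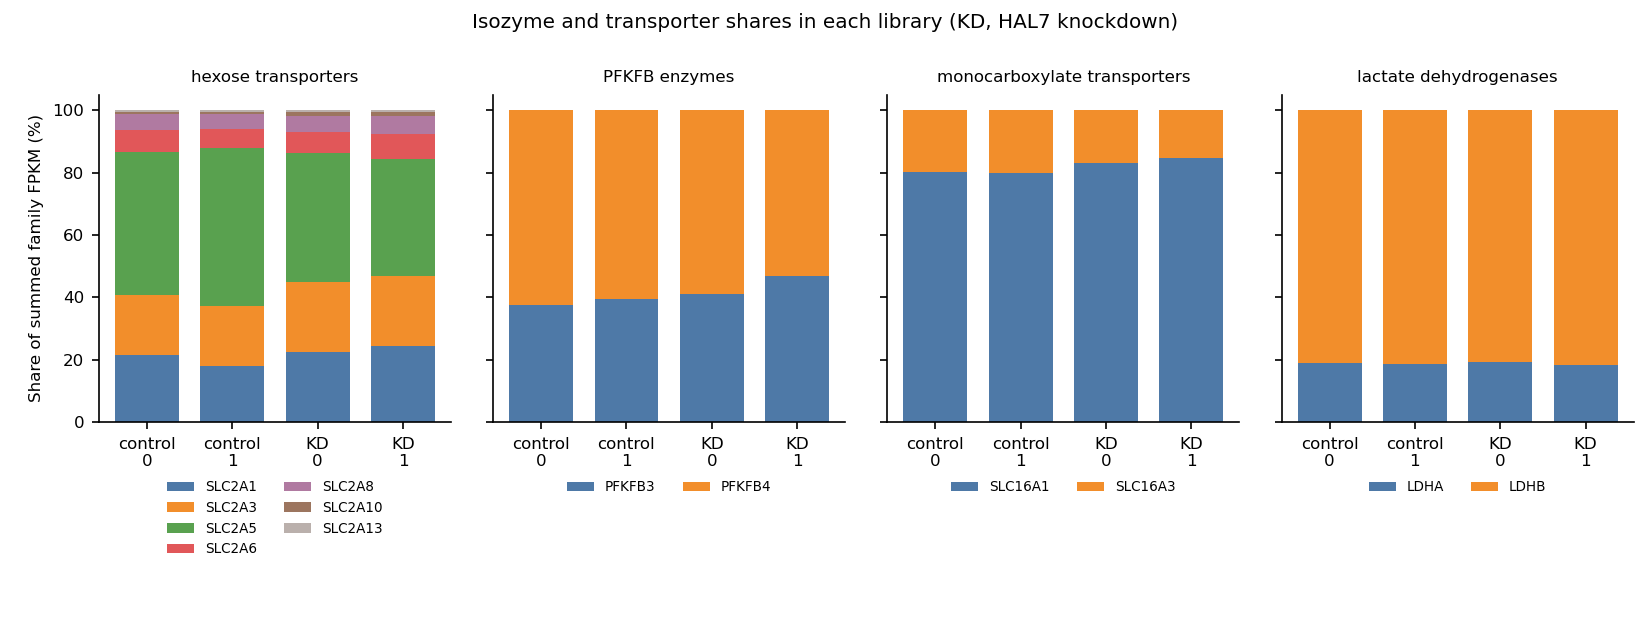
Share of each gene in the summed FPKM of its family, in percent, as stacked bars for the 2 control and 2 knockdown libraries (KD). SLC2A5 makes up 45.9% and 50.8% of the transporters in control and 41.2% and 37.5% after knockdown, while LDHB stays between 80.9% and 81.7% of its family.

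The 2 knockdown libraries differed from each other across the pathway. Of the 35 genes tested, 27 were higher in knockdown replicate 1 than in knockdown replicate 0, while the control libraries were split 17 to 18. The median deviation from the gene's mean was -0.04 on the log2 scale in knockdown replicate 0 and 0.04 in knockdown replicate 1, where all genes tested stood at -0.0065 and -0.0014. The 15 tested enzymes of upper and lower glycolysis stood at -0.07 and 0.07. Without knockdown replicate 0, limma gave an unadjusted p under 0.05 for 9 of the 35 genes, with LDHA, LDHB, ENO1, TPI1, PKM and SLC16A1 higher and SLC2A5, PFKFB4 and BNIP3 lower, and a median log2 change of 0.05. In that fit 18.3% of all genes tested were at this level. Without knockdown replicate 1 there were 2 such genes, SLC2A5 and PFKFB4, both lower, the median was -0.06, and 14.8% of all genes tested were at this level. ENO1, TPI1 and PKM changed the sign of their difference between these fits. SLC2A5 and PFKFB4 went the other way from most of the pathway, being lower in knockdown replicate 1 than in knockdown replicate 0. The 40 genes summed to 6457 and 6117 FPKM in control and 6198 and 6690 after knockdown, of which GAPDH and LDHB together made up 66.0% to 67.4%.

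**Figure D4:**
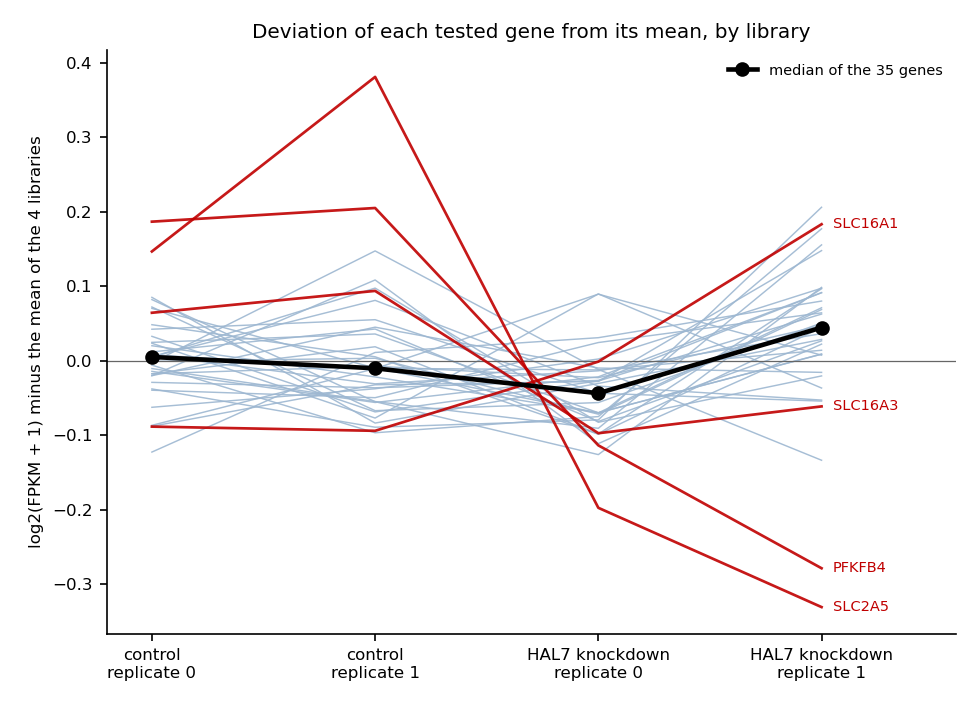
Deviation of each of the 35 tested genes from its mean over the 4 libraries (log2(FPKM + 1), vertical axis) in each library (horizontal axis); red lines are the 4 genes with an unadjusted p under 0.05, blue lines the others, and the black line is their median. The median lies at -0.04 in knockdown replicate 0 and at 0.04 in knockdown replicate 1.

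The log2 change moved with base composition over all genes. Spearman's rho between the log2 change and the GC content of the longest annotated transcript was -0.41 across 12499 genes and -0.37 across the 35, with all points from the same 4 libraries. Of the 12 genes of the pathway with a GC content of at least 55%, 10 were lower after knockdown, and of the 12 with under 47%, 9 were higher. With the trend on GC removed, 24 of the 35 were higher and 11 lower, and SLC2A5 (GC 51.0%) kept a log2 difference of -0.51 and PFKFB4 (56.8%) one of -0.34. SLC16A3 (62.7%) then stood at -0.08 with an unadjusted limma p of 0.239, and SLC16A1 (43.5%) at 0.16 with an unadjusted limma p of 0.0828. Transporters SLC2A1, SLC2A6 and SLC2A8, slightly lower in the deposited scaling, were slightly higher after this step. The split of 17 higher to 18 lower became 20 to 15 with quantile normalization and 21 to 14 with median centring.

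**Figure D5:**
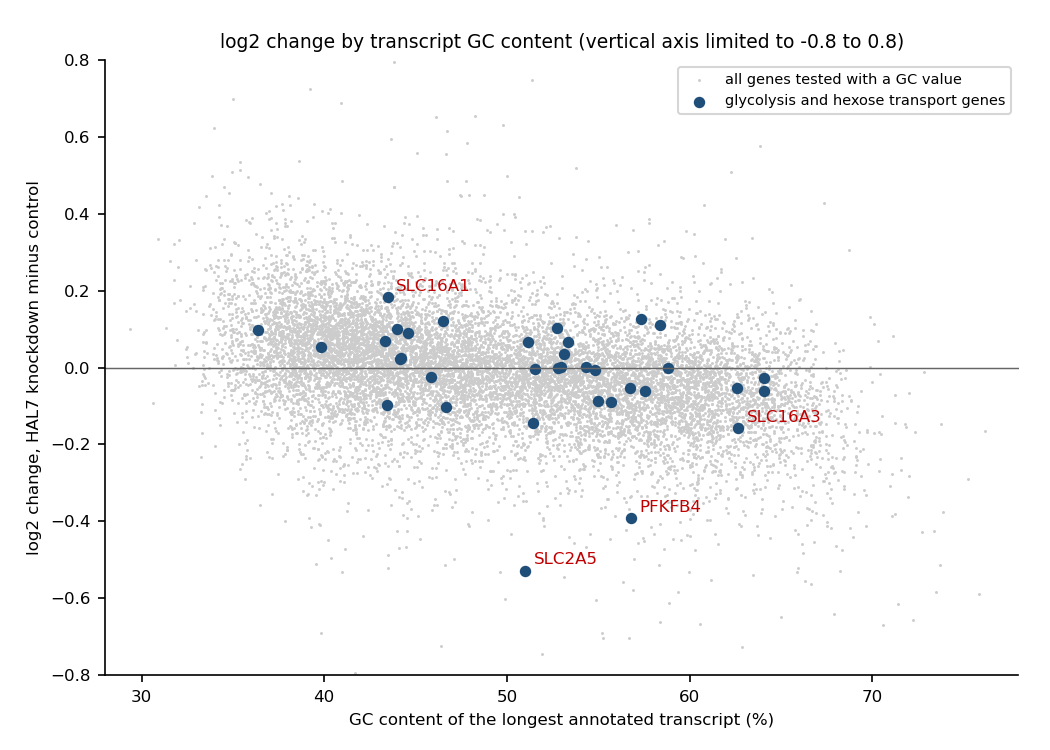
Log2 change (vertical axis, cut at the largest changes) against the GC content of the longest annotated transcript in percent (horizontal axis); grey points are all tested genes with a GC value and blue points the 35 genes of the pathway. SLC2A5 at 51.0% and PFKFB4 at 56.8% GC lie below the other blue points.

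Around the pathway, 6 lists of related genes with 92 tested genes were examined in the same fit, and none of the 92 passed the adjusted test. Unadjusted, 13 of the 92 (14.1%) had a limma p under 0.05, 5 higher and 8 lower, below the 16.6% of all genes tested, and the median log2 change was -0.0073. Among the other isozymes and partners, 1 of 13 was higher and 1 lower at that level (15.4%, against the same 16.6%). These were MPC2, part of the mitochondrial pyruvate carrier, at 24.8 and 24.1 FPKM in control and 26.7 and 27.4 after knockdown, and ENO3, the muscle enolase, at 27.4 and 28.4 in control and 25.7 and 23.6 after knockdown. BSG, the chaperone that SLC16A1 and SLC16A3 need at the membrane, ranged from 109 to 119 FPKM with overlapping groups. In the pentose phosphate pathway none of 8 had an unadjusted limma p under 0.05. TKT, its transketolase, was at 425 and 428 FPKM in control and 396 and 416 after knockdown.

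Of 22 genes of pyruvate dehydrogenase and the citrate cycle, 2 were higher and 2 lower by the same unadjusted measure (18.2%, against 16.6% of all genes tested). DLD, the dehydrogenase subunit shared by the mitochondrial keto acid complexes, was at 35.6 and 34.3 FPKM in control and 40.8 and 41.6 after knockdown (log2 change 0.23 ± 0.05 SE, limma adjusted p = 0.188). IDH3G, a subunit of isocitrate dehydrogenase, was at 64.4 and 63.6 FPKM in control and 57.9 and 58.2 after knockdown, and SDHA, a subunit of succinate dehydrogenase, at 98.4 and 98.5 in control and 91.1 and 87.3 after knockdown. Of 18 genes of the HIF pathway and its other targets, 1 was higher and 3 lower (22.2%, against the same 16.6%). P4HA2, a collagen hydroxylase, was at 15.8 and 15.9 FPKM in control and 14.04 and 11.4 after knockdown (log2 change -0.31 ± 0.09 SE, limma adjusted p = 0.224). BHLHE40, a transcription factor induced by hypoxia, was at 2.79 and 3.15 FPKM in control and 2.38 and 1.69 after knockdown (limma adjusted p = 0.226). DDIT4, another target, ranged from 114 to 118 FPKM with overlapping groups. Over the 18 genes, 9 had a log2 change above 0 and 9 below, with a median of -0.0007.

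Among 21 genes of gluconeogenesis, glycogen and other hexoses, 12 were higher and 9 lower by sign alone. At an unadjusted limma p under 0.05, 1 was higher and 1 lower (9.52%, against 16.6% of all genes tested). TKFC, a kinase that handles the glyceraldehyde made from fructose, was at 12.4 and 11.8 FPKM in control and 14.02 and 14.2 after knockdown (log2 change 0.21 ± 0.06 SE, limma adjusted p = 0.212). KHK and TKFC, the enzymes of fructose use, were thus higher in both knockdown libraries where the carrier SLC2A5 was lower, each short of the adjusted threshold. Of 10 glucose-sensing regulators, 1 had an unadjusted limma p under 0.05 (10%, against 16.6% of all genes tested). By sign alone, 6 of the 10 were lower. The gene at that level was MLXIP, a partner of MLX in glucose-responsive transcription. MLXIP was lower, at 48.2 and 51.9 FPKM in control and 44.2 and 40.2 after knockdown (log2 change -0.24 ± 0.07 SE, limma adjusted p = 0.212). MYC, which drives many genes of glycolysis, was at 388 and 366 FPKM in control and 383 and 449 after knockdown, with knockdown replicate 1 alone above the control libraries, as for ENO1 and TPI1.

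Processed copies of the pathway's genes were checked because reads can be shared with them. The annotation named 112 such pseudogenes, 61 of them of GAPDH and 13 of PGAM1, and 5 of the 112 reached a mean of 1 FPKM. SLC2A3P1 was at 12.5 and 16.1 FPKM in control and 10.3 and 10.98 after knockdown, a level close to that of SLC2A3 itself (log2 change -0.39 ± 0.11 SE, limma adjusted p = 0.214). ENO1P4 was at 1.49 and 1.37 FPKM in control and 0.736 and 0.996 after knockdown (limma adjusted p = 0.205), against 368 FPKM or more for ENO1. LDHAP4 ranged from 2.80 to 3.16 FPKM with overlapping groups. None of the 61 GAPDH copies reached a mean of 1 FPKM.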

How the data were processed

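The TruSeq mRNA kit was used on total RNA, per the labels' protocols. Per the submitters' processing notes, the tools were TopHat2 2.0.14 with Bowtie2 2.2.5, then Cuffdiff 2.2.1, on hg19. Options and annotation: not given in the sources used here. The deposited values, read here as FPKM, were computed by the authors with Cuffdiff from TopHat2 alignments, per the submitters' processing notes. They carry no stated unit, and the sample columns name only group and replicate. FPKM was inferred from a column name typical of Cuffdiff, the tools listed and totals of 812554 to 853609 per library, so no count test was used. Depth was estimated from the steps between low FPKM values and assumes whole fragments.

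Names, positions, GC content and transcript lengths came from GENCODE 29 (GRCh38), not the authors' build, by Ensembl ID; of the 12935 genes tested, 12499 had a name. Promoters came from a RefSeq table for GRCh38.p14. Groups and replicate numbers came from the sample labels. Knockdown was compared with control with limma 3.58.1 in R 4.3.3 on log2(FPKM + 1). The fit took HAL7 and every gene whose mean reached 1 FPKM, with a mean-variance trend and two-sided p-values adjusted over all genes tested (Benjamini-Hochberg, threshold 0.05). The fold scale understates changes of low genes. The script was tested on simulated data. The members and lists were chosen with earlier results of these data known. Of each pathway list the 2 tested genes of smallest p and the 2 of highest mean could be named, likewise for pseudogenes. PDK2 was added after its values were seen. EGLN2 and TXNIP from the lists and the marker MRC1 were not matched. Alternatives were median centring or quantile normalization, pseudocounts of 0.1 and 5, a minimum mean of 5 FPKM or no filter, a constant prior variance, protein-coding genes only, removal of the GC trend, a replicate block, and leaving out each library. Such a fit takes the variance of the remaining single library from the other group.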

Additional observations from a re-analysis of the deposited data

How the results depend on the processing

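No gene of the pathway passed the adjusted test in any of the 15 alternatives, and the lowest adjusted p was 0.0844. SLC2A5 and PFKFB4 had an unadjusted limma p under 0.05 in all 15, SLC16A1 in 8 and SLC16A3 in 7. The count of genes of the pathway at that level was 4, fell to 2 with the GC trend removed, and ran from 2 to 9 when a library was left out. The median log2 change of -0.0014 ran from -0.058 without knockdown replicate 1 to 0.048 without knockdown replicate 0. Of the 35 genes, 17 kept their sign in every alternative. The count over all genes was 4, with 2 at a pseudocount of 0.1, 1 at a mean of at least 5 FPKM and 11 to 22 with a library left out. With no filter on low values limma passed 0 of 28016 genes, with 3002 at an unadjusted p under 0.05. The cause of these differences was not tested. Of 40 differences in family shares with a library left out, 37 kept their direction. Most of that count was fixed in advance, because a share without overlap between groups cannot turn when 1 library is left out. This holds for SLC2A5, HK1, PFKM, PFKFB4, ALDOA, SLC16A1 and PDK1. Only the shares of LDHB, ENO1 and EGLN1 could turn, so the count is no measure of robustness.

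The labels do not say whether libraries with the same replicate number share a culture or a day. The correlation of their deviations was 0.12 over 12934 genes, from 2 pairs, too few to establish a pairing. With the replicate block 19 genes passed in all and none of the pathway, and with the block and the GC trend removed 2 genes of the pathway had an unadjusted p under 0.05. The 2 libraries in each group and the lower depth of control replicate 0 limit the precision, and the low level of HAL7 limits the check of the knockdown.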
